A study of Mus musculus with 10 samples.

Results

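The genes described here are 34 genes of DNA replication and mitosis, out of 24421 genes in the authors' deposited table. They were chosen by name, but with earlier results of these data known. All 34 were listed, and all 34 passed the authors' filter on low counts, which left 16050 genes tested. The tissue was olfactory epithelium, the sensory lining of the nose, taken from untreated mice of the C57BL/6 background at 6 months of age. Mice labelled Apoe4 (6 biological replicates) were set against mice labelled Apoe3 (4 biological replicates), human alleles of the lipid carrier apolipoprotein E as the series title gives them. Both groups are labelled with a human allele, and no group is labelled as having the mouse allele alone. The labels do not say how the human alleles were introduced, whether the mouse allele remains, or which cells express them. The labels name no animals and give no sex, so a p-value here measures the spread between these samples.

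Dividing cells make these transcripts in waves. Cyclin E with its kinase starts DNA replication, the Mcm2-7 helicase and the clamp Pcna carry the replication fork, and cyclin B with Cdk1 then drives mitosis until the anaphase promoting complex destroys the cyclin. In olfactory epithelium the dividing cells are mainly globose basal cells, which replace sensory neurons throughout life, while horizontal basal cells are a mostly quiescent reserve. In resting cells the DREAM complex helps to hold cell cycle genes silent. Many genes of mitosis carry a promoter element that it binds, called the cell cycle genes homology region (CHR). Many genes of replication carry elements bound by E2F proteins.

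The promoters of these genes shared sequence features that the choice by name did not use. RefSeq promoter windows (GRCm38.p6, 250 bases before to 50 after the transcription start) were matched by symbol for 28 of the 34 genes, with 29 windows in all. Ccna2, Ccne2, Mcm4, Aurkb, Kif20a and Tpx2 had no entry. The CHR, searched as TTTGAA or TTTAAA on both strands, occurred in 20 of 29 windows (69.0%), against 21.1% of 15290 windows of the other genes tested and 27.6% of all 32851 windows. The CCAAT box, searched as CCAAT on both strands, occurred in 25 of 29 (86.2%), against 37.3% of windows of the other genes tested and 37.4% of all windows. At least 2 CCAAT boxes stood in 55.2% of the windows, against 13.0% of those of the other genes tested and 11.7% of all windows. An E2F element, searched as TTTCCCGC, TTTCGCGC, TTTGCCGC or TTTGGCGC on both strands, occurred in 5 of 29 windows (17.2%), against 3.34% of the windows of the other genes tested and 2.27% of all windows. No window held the TATA box TATAAA, which 9.13% of windows of the other genes tested and 13.6% of all windows held. These shares are a description of short letter matches, not of binding sites.

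The E2F element was mostly on helicase genes. The 4 Mcm genes Mcm3, Mcm5, Mcm6 and Mcm7 and the kinase gene Cdk1 were the 5 genes with an E2F element. Of the 20 genes with a CHR, 16 had one that began within 50 bases of the start. Of 55 CCAAT boxes, 43 began within 150 bases before the start. Neither a CHR, a CCAAT box nor an E2F element was found in the windows of 2 genes, Nusap1 and Tyms. The 160 bases before the RefSeq start of 7 genes are shown. Of these, 4 are examples of the elements, picked after the matches were seen (Ccnb1, Ccnb2, Cdc20 and Mcm6). Cenpa, Plk1 and Mcm5 are shown because their folds are among those farthest from 0 below. RefSeq starts differ from the GENCODE gene bounds given below. The stretches of Cenpa and Ccnb1 lie partly inside those bounds, which begin at 30666777 for Cenpa and end at 100786570 for Ccnb1 (minus strand). Capitals mark CHR, CCAAT and E2F letters, where ATTGG is a CCAAT box read on the other strand, and overlapping E2F letters on both strands run together.
Ccnb1 (chr13:100786487-100786646, minus strand): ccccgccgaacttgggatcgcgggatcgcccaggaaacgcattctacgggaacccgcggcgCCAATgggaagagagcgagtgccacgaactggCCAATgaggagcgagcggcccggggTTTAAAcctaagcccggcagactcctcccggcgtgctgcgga
Ccnb2 (chr9:70421555-70421714, minus strand): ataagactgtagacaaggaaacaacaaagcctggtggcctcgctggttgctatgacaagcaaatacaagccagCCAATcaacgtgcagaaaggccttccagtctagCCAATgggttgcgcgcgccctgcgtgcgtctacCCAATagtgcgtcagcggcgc
Cdc20 (chr4:118437344-118437503, minus strand): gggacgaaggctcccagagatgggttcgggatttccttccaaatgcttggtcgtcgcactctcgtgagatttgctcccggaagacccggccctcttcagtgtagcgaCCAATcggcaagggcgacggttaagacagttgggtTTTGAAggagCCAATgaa
Mcm6 (chr1:128359706-128359865, minus strand): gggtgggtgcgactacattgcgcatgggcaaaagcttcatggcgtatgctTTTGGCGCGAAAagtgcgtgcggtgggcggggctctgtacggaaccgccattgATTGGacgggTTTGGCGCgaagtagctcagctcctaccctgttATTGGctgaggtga
Cenpa (chr5:30666726-30666885, plus strand): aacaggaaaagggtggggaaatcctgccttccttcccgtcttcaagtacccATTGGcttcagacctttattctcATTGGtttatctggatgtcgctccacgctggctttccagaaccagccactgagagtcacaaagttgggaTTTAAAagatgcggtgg
Plk1 (chr7:122159275-122159434, plus strand): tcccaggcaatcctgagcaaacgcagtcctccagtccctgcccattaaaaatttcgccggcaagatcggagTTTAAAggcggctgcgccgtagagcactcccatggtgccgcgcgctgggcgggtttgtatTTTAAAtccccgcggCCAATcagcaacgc
Mcm5 (chr8:75109349-75109508, plus strand): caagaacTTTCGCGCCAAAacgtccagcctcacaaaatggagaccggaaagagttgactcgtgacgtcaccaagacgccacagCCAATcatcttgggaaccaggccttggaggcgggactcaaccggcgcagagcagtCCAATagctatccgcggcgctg
CHR matches outside these stretches are not drawn. That of Ccnb2 nearest the start begins at position 5 of the transcript, and the single one of Mcm5 lies 221 bases before the start.

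The authors' deposited table gives each gene 1 mean over all 10 libraries, a log2 fold change with its standard error, and the p-values of a DESeq2 Wald test. Values of single animals are therefore not shown. Which group is on top of the folds is not named. Genes with a single read in 1 library fell on 10 levels of the mean, 6 with positive and 4 with negative folds, so a positive fold is higher in Apoe4. The same levels gave library sizes of about 14.9 to 20.1 M assigned reads, with size factors from 0.891 to 1.16 in Apoe4 and from 0.859 to 1.14 in Apoe3. Defining markers of the tissue were abundant, with deposited means of 113676 normalized counts for Omp of mature neurons and 63586 for Cyp2g1 of supporting cells. The mouse Apoe gene had a deposited log2 fold change of -0.16 (SE 0.10, adjusted p = 0.579). That row cannot check the labels, since a human transcript may or may not be counted there.

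The transcripts were scarce. The 34 deposited means summed to 6518 normalized counts, 0.0375% of all counts in the table and 5.73% of the mean of Omp alone. Their median was 123 normalized counts, against 427 over all genes tested. The standard errors of 21 of the 34 lay above 95% of the ceiling over all genes. This does not rank scarcity, since the scarcest genes, Ccne1 and Ccne2, had lower errors of 0.09 each. Per kilobase of transcript, Pcna was highest at 766 mean normalized counts. Rrm1 and Mcm7 came next, both at about 156 and 155, then Mcm4 at 105, Ube2c at 92.7, Mcm6 at 92.0 and Top2a at 86.1 mean normalized counts per kilobase. The proliferation antigen Mki67 stood at 32.2 and Cdk1 at 20.4 mean normalized counts per kilobase. The lowest were the cyclin E genes, Ccne1 at 10.7 and Ccne2 at 6.88 on this scale. These are means over both groups with no spread between animals given, so neighbours in the order, such as Rrm1 and Mcm7, cannot be told apart.

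**Figure D1:**
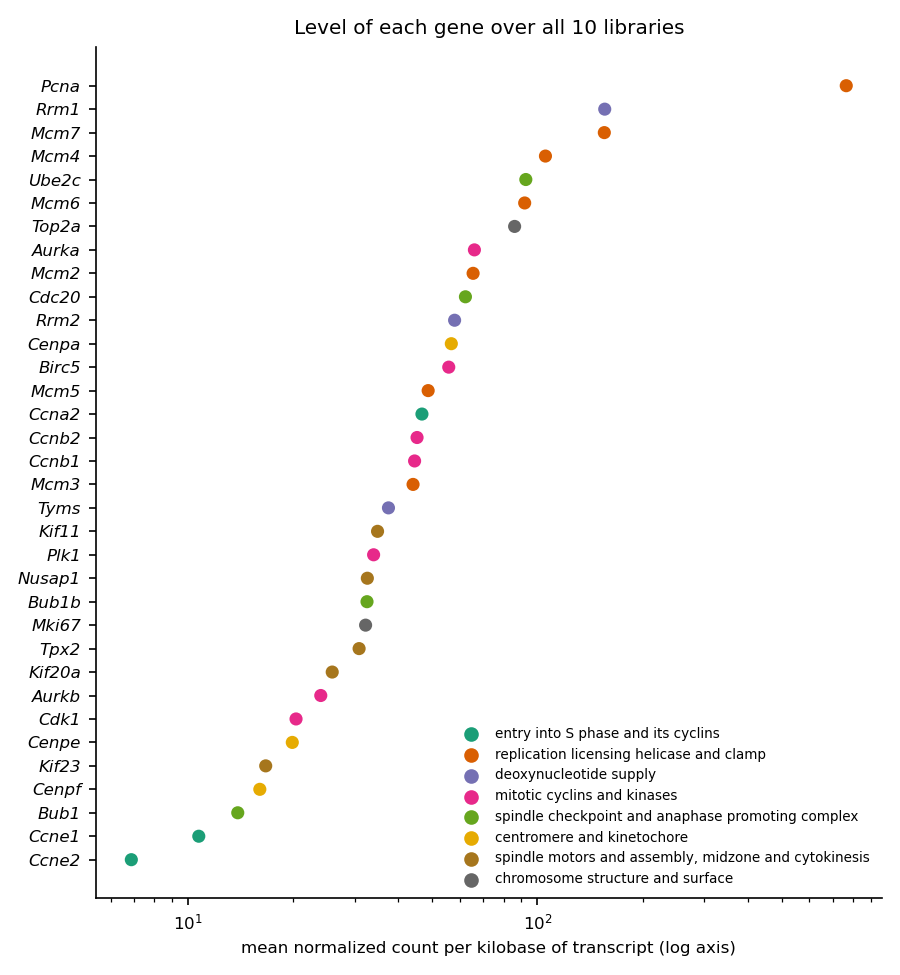
Mean normalized count per kilobase of transcript (log axis) for each of the 34 genes, averaged by the authors over all 10 libraries and coloured by role. Pcna lies highest at 766, and the cyclin E genes Ccne1 and Ccne2 lie lowest at 10.7 and 6.88.

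None of the 34 proliferation and mitosis genes passed the authors' DESeq2 test (adjusted p under 0.05). Of all genes tested 0.779% passed it, 0.324% as higher and 0.455% as lower in Apoe4. Folds were small and mostly below 0: 26 of 34 were lower in Apoe4 and 8 higher (23.5% positive), while 51.1% of all genes tested had a positive and 48.9% a negative fold. The median deposited log2 fold change was -0.05, against 0.0026 over all genes tested, and the members ran from -0.28 to 0.10. The smallest adjusted p was 0.274. At an unadjusted p under 0.05 stood 5 of 34, all lower in Apoe4, where 10.3% of all genes tested passed this mark, 4.54% as higher and 5.76% as lower. Since the genes share cells, cell cycle phases and libraries, their common sign is not 34 independent observations. In whole tissue, fewer dividing cells and less RNA per dividing cell cannot be told apart.

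The deposited folds were shrunk towards 0, strongly for scarce genes. Undoing the shrinkage approximately (an algebraic step that leaves each p unchanged) gave a median of -0.08 for the 34 genes. The step has 2 algebraic roots for 32 of the 34, and the root nearer to the trend of spread on mean was taken, so every unshrunken value, interval and group mean given here rests on that choice. To pass at an adjusted p under 0.05, an unshrunken change of at least 1.23-fold would have been needed for Pcna, 1.51-fold for the median gene and 2.58-fold for Ccne2. With the other root the needed change would have been 3.77-fold for Pcna and 1.94-fold for the median of the 32 genes, with no such root for Ccne1 and Ccne2.

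Among genes that start replication, cyclin E1 was farthest from 0. Ccne1 (chromosome 7, 38097984 to 38107534, GRCm38, protein coding) had a deposited mean of 21.5 normalized counts and a deposited log2 fold change of -0.22 (SE 0.09, adjusted p = 0.382). With the shrinkage undone its log2 fold change was -0.83, with a 95% interval from -1.53 to -0.14, which together with the mean corresponds to about 16.4 normalized counts in Apoe4 and 29.1 in Apoe3. The interval spans both a small and a large difference, and the gene did not pass over all genes tested. Ccne2, its paralogue, stood at -0.09 (SE 0.09, adjusted p = 0.754) in the authors' deposited table. Ccna2, the cyclin of S phase and G2, stood at -0.05 (SE 0.10, adjusted p = 0.903) there.

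The 7 genes of the replicative helicase and clamp all had negative folds, and none passed. Mcm5 (chromosome 8, 75109569 to 75128439), a subunit of the helicase, had a deposited mean of 165 normalized counts and a deposited log2 fold change of -0.19 (SE 0.09, adjusted p = 0.469). Undone, this was -0.26 with a 95% interval from -0.51 to -0.01, or about 152 normalized counts in Apoe4 and 183 in Apoe3. The other root would give -0.70, or about 132 normalized counts in Apoe4 and 214 in Apoe3. Its partner subunits ran from -0.02 for Mcm3 to -0.14 for Mcm6 in the authors' deposited table (DESeq2 adjusted p from 0.611 to 0.976). The 6 subunits act as 1 ring, and each 95% interval apart from that of Mcm5 included 0. Pcna, the sliding clamp of the fork, is the most abundant of the set, with a deposited mean of 1163 normalized counts. Its deposited log2 fold change was -0.10 (SE 0.07, adjusted p = 0.657). Undone, the 95% interval ran from -0.28 to 0.05, and with the other root, at -0.76, from -1.81 to 0.30.

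Of the genes that supply deoxynucleotides, the S phase subunit of ribonucleotide reductase was lowest. Rrm2 stood at -0.18 (SE 0.10, adjusted p = 0.552) in the authors' deposited table. Rrm1, the large subunit, and Tyms, which makes thymidylate, stood at -0.02 (SE 0.08, adjusted p = 0.951) and 0.00 (SE 0.10, adjusted p = 0.998). Rrm1 has a mean of 623 normalized counts, and its unshrunken 95% interval ran from -0.20 to 0.15 on the log2 scale, and with the other root, at -0.13, from -1.08 to 0.82. Pseudogenes of Tyms, Ccnb1 and Ccnb2 are also listed in the table, so reads of these 3 genes may have been split and their values are uncertain.

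**Figure D2:**
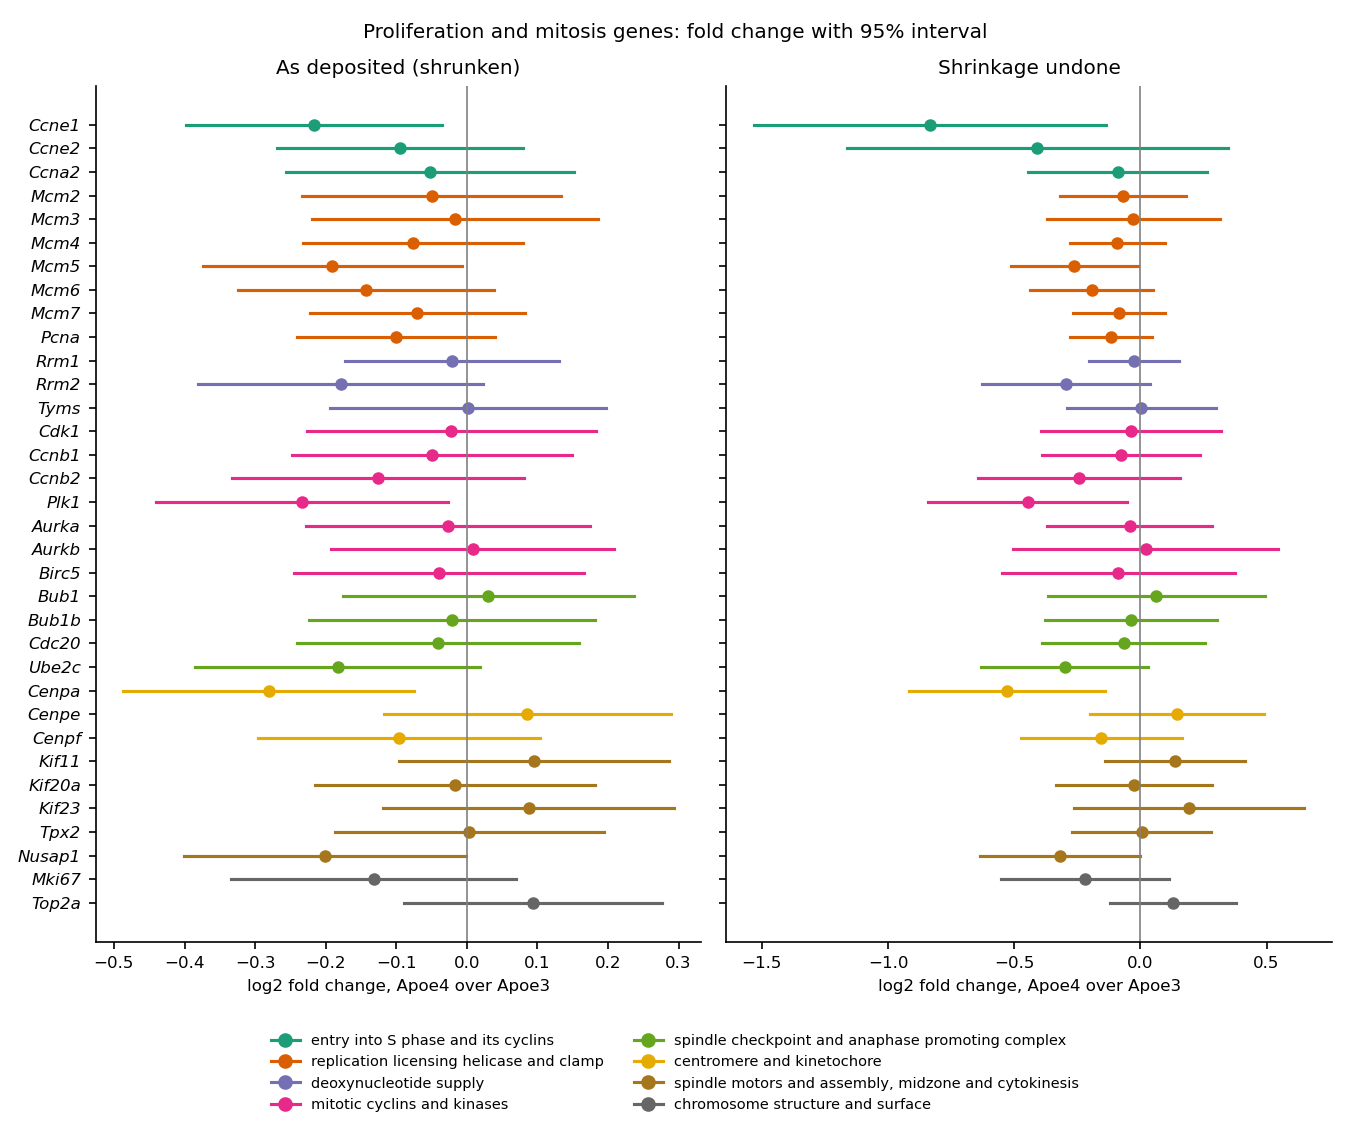
Log2 fold change of each gene, Apoe4 over Apoe3, with its 95% interval, as deposited (left) and with the shrinkage undone (right, on a wider axis), coloured by role. On the left 29 of 34 intervals include 0 and 5 lie below it, those of Ccne1, Mcm5, Plk1, Cenpa and Nusap1.

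The kinases and cyclins of mitosis had small folds apart from Plk1. Plk1 (chromosome 7, 122159439 to 122169873), the polo kinase of centrosomes and kinetochores, had a deposited mean of 74.7 normalized counts and a deposited log2 fold change of -0.23 (SE 0.11, adjusted p = 0.414). With the shrinkage undone it was -0.45 (95% interval from -0.84 to -0.05), or about 65.3 normalized counts in Apoe4 and 88.9 in Apoe3. An antisense gene, Gm44985, overlaps its exons, and strand was not given, so reads of both may mix. Cdk1, the kinase that all of mitosis depends on, stood at -0.02 (SE 0.10, adjusted p = 0.964) in the authors' deposited table. Its cyclins Ccnb1 and Ccnb2 stood at -0.05 and -0.13 there (adjusted p = 0.905 and 0.719). The aurora kinases, Aurka of the spindle poles and Aurkb of the chromosomal passenger complex, stood at -0.03 and 0.01, and the passenger subunit Birc5 at -0.04 (adjusted p from 0.931 to 0.988).

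Spindle checkpoint genes were close to 0 in the authors' deposited table, with Bub1 at 0.03, Bub1b at -0.02 and Cdc20, the activator of the anaphase promoting complex, at -0.04 (adjusted p from 0.925 to 0.964). Ube2c, the ubiquitin conjugating enzyme of that complex, stood lower at -0.18 (SE 0.10, adjusted p = 0.538).

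Centromere genes held the lowest fold of all 34. Cenpa (chromosome 5, 30666777 to 30674830), the histone H3 variant that marks centromeres, had a deposited mean of 83.1 normalized counts and a deposited log2 fold change of -0.28 (SE 0.11, adjusted p = 0.274). With the shrinkage undone it was -0.53 (95% interval from -0.92 to -0.14), or about 70.6 normalized counts in Apoe4 and 102 in Apoe3. The kinetochore motor Cenpe and the kinetochore protein Cenpf stood on both sides of 0, at 0.09 and -0.10 (adjusted p = 0.828 and 0.794) in the authors' deposited table.

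Among spindle genes Nusap1 (chromosome 2, 119618298 to 119651244), a microtubule bundling protein, stood lowest, at a deposited log2 fold change of -0.20 (SE 0.10, adjusted p = 0.482) and a deposited mean of 96.5 normalized counts. Undone, this was -0.32 with a 95% interval from -0.64 to -0.0029, or about 87.8 normalized counts in Apoe4 and 110 in Apoe3. Oip5 overlaps its exons on the other strand. The motors Kif11, which separates the spindle poles, and Kif23, of the midzone, had positive folds of 0.10 and 0.09 (adjusted p = 0.784 and 0.828) in the authors' deposited table. Kif20a, of cytokinesis, and Tpx2, of spindle assembly, stood at -0.02 and 0.00 there (adjusted p = 0.973 and 0.995).

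The commonly used labels of dividing cells gave opposite signs. Mki67, which coats mitotic chromosomes, stood at -0.13 (SE 0.10, adjusted p = 0.701) in the authors' deposited table, with a mean of 324 normalized counts. Top2a, which untangles them, stood at 0.09 (SE 0.09, adjusted p = 0.772) there, with a mean of 449 normalized counts. Both 95% intervals included 0.

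The promoter elements did not sort the folds clearly. The 20 genes with a CHR had a median deposited log2 fold change of -0.05, and the 8 without it also -0.05. The 5 genes with an E2F element had a median of -0.07, and the 23 without it -0.05. The 24 genes with a CCAAT box had a median of -0.05, and the 4 without it -0.12. The ranges of genes with and without each element overlapped.

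Transcript length moved with the fold in this table. Over 15968 genes tested with a length, the Wald statistic rose with length (Spearman rho = 0.439 across genes, which share libraries and are not independent), and across the 34 genes rho was 0.497. The 17 shorter genes, with transcripts of 947 to 3006 bases, had a median deposited log2 fold change of -0.10 with 16 negative, where 7277 genes in the same length range had a median of -0.03 and 35.9% positive folds. The 17 longer genes, of 3031 to 11130 bases, had a median of -0.02 with 10 negative, where 7588 genes of that length had a median of 0.04 and 68.1% positive folds. With the trend of all genes subtracted, the median of the 34 was -0.05, with 9 positive folds and none past the threshold (smallest adjusted p = 0.588), where 0.645% of all genes with a length passed. The median of the 34 was -0.05 before and after this step, while 5 genes changed sign. Cenpa then stood at -0.21 with an adjusted p of 0.711, but at -0.30 with an adjusted p of 0.264 when the longest transcript of each gene gave the length. Mki67 stood at -0.20 with an adjusted p of 0.723.

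**Figure D3:**
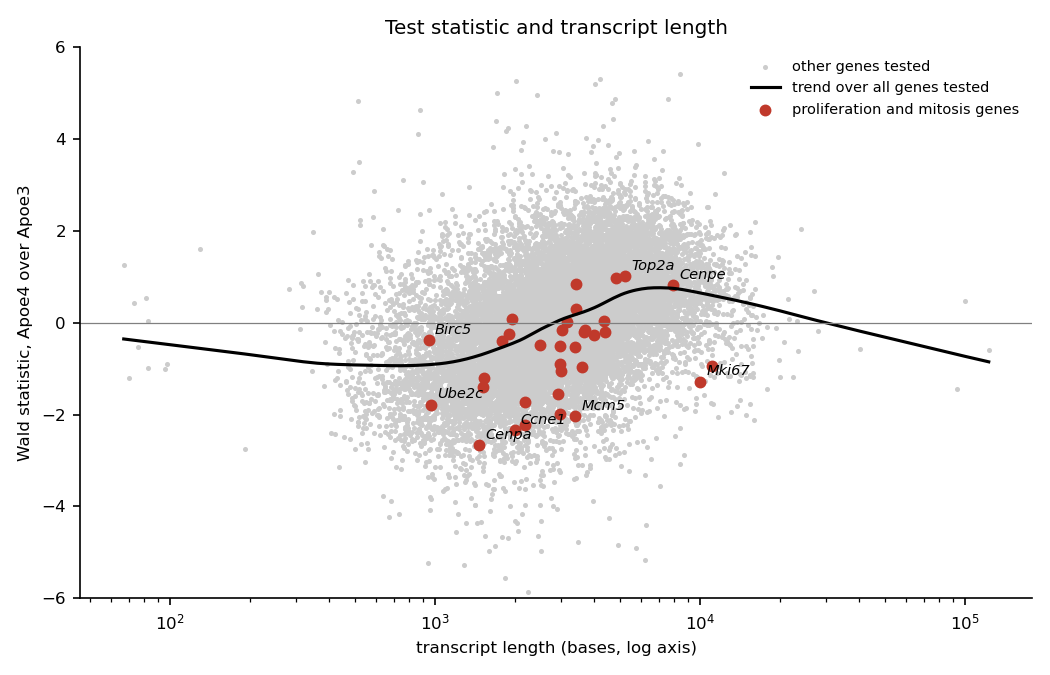
Wald statistic (Apoe4 over Apoe3) against transcript length in bases (log axis) for the genes tested, with the trend over all of them (black) and the 34 proliferation and mitosis genes (red). Genes with a statistic beyond 6 in size lie outside the axis. The shorter members lie mostly below 0, and the long Mki67 and Cenpf lie below the trend.

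Other genes of the cell cycle, from lists chosen by function, were set beside the 34. Of 42 tested genes of origins and replication forks, 29 had negative folds (median -0.04) and 1 passed. That gene was Rpa3, the small subunit of the single-strand binding complex, which fell by 0.41 log2 units in the authors' deposited table (SE 0.10, adjusted p = 0.00523). With the length trend subtracted its log2 fold change was -0.32 and did not pass (adjusted p = 0.107). Deposited log2 fold changes were -0.26 for Rpa2, another subunit, and -0.25 for Dut, which breaks down dUTP (adjusted p = 0.219 and 0.200). Of 70 tested other mitosis genes none passed by the authors' DESeq2 test (4, or 5.71%, at an unadjusted p under 0.05), and 41 had negative folds with a median of -0.02. Over all genes tested 0.779% passed, 10.3% had an unadjusted p under 0.05 and 48.9% had a negative fold. In that list Fbxo5, an inhibitor of the anaphase promoting complex, stood at 0.27, Cenpl of the centromere at -0.23 and the condensin subunit Ncapg2 at -0.17 in the authors' deposited table (DESeq2 adjusted p from 0.305 to 0.427).

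Regulators of cell cycle entry stood on both sides of 0. Of 23 tested G1 cyclins, their kinases and E2F and RB proteins, 1 passed, where 0.779% of all genes tested did. Rb1, the retinoblastoma protein that holds E2F in check, rose by 0.34 log2 units in the authors' deposited table (SE 0.07, adjusted p = 6.01e-04). With the length trend subtracted it stood at 0.30 and still passed (adjusted p = 0.00552). Ccnd2, a D cyclin, had a deposited log2 fold change of 0.25 and Mybl2, the activator of mitotic genes, one of -0.23 (adjusted p = 0.314 and 0.409). None of 14 tested kinase inhibitors and p53 arrest genes passed, and none had an unadjusted p under 0.05, where 10.3% of all genes tested did. Cdkn1a, Cdkn2d and Btg2 had log2 folds of 0.13, -0.17 and 0.10 in the authors' deposited table (DESeq2 adjusted p from 0.510 to 0.667).

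Markers of the basal cells were present. Deposited means were 1445 normalized counts for Krt5 and 542 for Trp63 of horizontal basal cells, and 79.8 for Neurog1 of globose basal cells. Of 17 globose basal and precursor markers 11 had positive folds (64.7%, where 51.1% of all genes tested did; median 0.04) and 1 passed, Sox4, a transcription factor of precursors, which rose by 0.35 log2 units in the authors' deposited table (SE 0.07, adjusted p = 3.98e-04). Sox11 and Elavl4, of immature neurons, stood next at 0.20 and 0.13 in the authors' deposited table (DESeq2 adjusted p = 0.282 and 0.599). Neurog1 and Neurod1, transcription factors of neuronal precursors, stood at -0.02 and 0.06 there (adjusted p = 0.975 and 0.864). Of 14 horizontal basal markers 10 had positive folds (71.4%, median 0.05) and none passed (2 at an unadjusted p under 0.05). Over all genes tested 0.779% passed and 10.3% had an unadjusted p under 0.05. The median transcript length of this list was 3940.5 bases, and 68.1% of all genes in the range of 3031 to 11130 bases had positive folds. With the length trend subtracted the median was 0.04 for this list and 0.04 for the globose basal list. Sox4 then stood at 0.31 and still passed (adjusted p = 0.0043). In the horizontal basal list the smallest p were those of Col17a1, Itga6 and Sox9, at 0.24, 0.21 and 0.14 in the authors' deposited table (DESeq2 adjusted p from 0.278 to 0.571). Whether these genes, Sox9 among them, are confined to horizontal basal cells in this tissue was not tested.

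**Figure D4:**
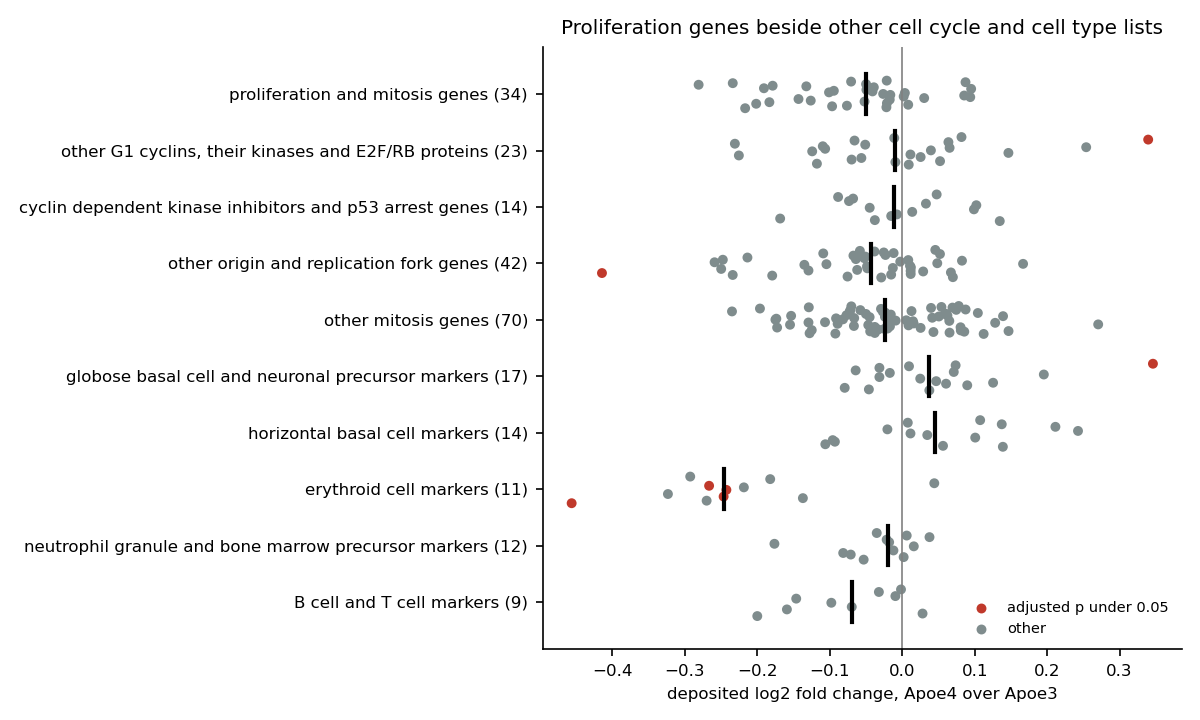
Deposited log2 fold changes (Apoe4 over Apoe3) of the genes tested in each list, with the number of genes in brackets and the median as a black bar and genes at an adjusted p under 0.05 in red. The median is -0.05 for the 34 proliferation and mitosis genes, 0.04 and 0.05 for the basal cell lists and -0.25 for the erythroid list, all as shrunk by the authors.

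Erythroid markers, which come with blood and marrow, were lower in Apoe4 beside these genes. Of 17 erythroid markers, 16 were listed, 4 haemoglobin genes were at a mean of 0 and 11 were tested. Of those 11, 10 had negative folds and 4 fell. Among these, Alas2, of haem synthesis, fell by 0.46, Slc4a1, the anion exchanger, by 0.27 and Car1, a carbonic anhydrase, by 0.25 log2 units in the authors' deposited table (DESeq2 adjusted p from 0.00337 to 0.0171). These folds were shrunk strongly: undone, they were -0.81 for Alas2 (SE 0.19), -2.71 for Slc4a1 (SE 0.64) and -2.46 for Car1 (SE 0.63). The large errors of Slc4a1 and Car1 leave the size of their folds uncertain. The list's median was -1.18 undone, against -0.25 as deposited. With the length trend subtracted Car1 stood at -0.19 and did not pass (adjusted p = 0.181). Of 9 tested B and T cell markers 8 had negative folds (median -0.07) and none passed (2 at an unadjusted p under 0.05). Cd79a and Cd79b, of the B cell receptor, had deposited log2 folds of -0.20 and -0.15 (authors' deposited table, DESeq2 adjusted p = 0.392 and 0.503). Of 12 tested neutrophil and marrow markers 8 had negative folds (median -0.02) and none passed (none at an unadjusted p under 0.05). Of all genes tested 48.9% had a negative fold, 10.3% had an unadjusted p under 0.05 and 0.779% passed. With the length trend subtracted the median was 0.02 for the neutrophil and marrow list. It was -0.04 for the B and T cell list and -0.21 for the erythroid list. The protease genes Mmp9 and Prtn3 and the peroxidase Mpo had log2 folds of -0.18, -0.08 and -0.05 in the authors' deposited table (DESeq2 adjusted p of 0.518 and above). The deposited means of the listed erythroid markers summed to 3658 normalized counts, of which 1642 and 1531 were Car2 and Tfrc, genes that other cells also express. The part of erythroid or lymphoid cells in the folds of the proliferation genes was not tested.

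Y-linked genes and Xist had the deposited folds farthest from 0 among the genes named here. In the authors' deposited table all 4 tested Y-linked genes fell (log2 fold changes from -3.72 for Eif2s3y to -2.80 for Kdm5d, with Uty and Ddx3y between), all 4 X-linked genes that escape silencing rose (from 0.32 for Ddx3x to 0.75 for Kdm6a, with Kdm5c and Eif2s3x between), and Xist had a log2 fold change of 6.41 without a p-value. With the shrinkage undone the Y-linked folds ran from -6.09 for Eif2s3y to -5.48 for Kdm5d. Y-linked transcripts were thus far scarcer, and Xist far more abundant, in Apoe4 than in Apoe3. The sex of each animal was not given. None of the 34 genes lies on the X or Y chromosome. Genotype and the make-up of the groups by sex cannot be told apart for any value given here.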

How the data were processed

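Poly(A) RNA libraries of olfactory epithelium (6 Apoe4, 4 Apoe3) were sequenced as paired-end reads, per the labels' protocols. STAR, featureCounts, DESeq2 and GRCm38 are named in the submitters' processing notes. Their versions and strand setting were not given in the sources used here. As deposited, 1 table holds a mean signal (read counts divided by size factors, over all libraries), log2 fold changes with log2 standard errors, the Wald score, and p-values with Benjamini-Hochberg adjusted p-values. The score equals fold over error within 1.3e-13, and adjusted p over the 16050 tested genes were recomputed within 1.5e-14. Genes with a mean up to 9.99 were marked low by the authors.

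The standard error has a ceiling of 0.105, as a normal prior on the fold would give. Its SD (0.21 on the log2 scale) is double that ceiling, which gives each gene's shrinkage as a quadratic. The root nearer to the trend of dispersion on mean was used. The 95% intervals are fold ± 1.96 errors and take no account of the choice of root. The change needed to pass is the smallest Wald score called (3.56) times the unshrunken error.

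The test planned for counts per library could not be used, since the table holds 1 mean per gene; the authors' test applies, as planned for that case. Lengths are those of the longest principal GENCODE vM21 transcript (longest coding or longest where there is none), found for 99.5% of tested genes. The trend on length was drawn by lowess (fraction 0.3) on the Wald score. Promoters are from RefSeq. Symbols Knl1, Sgo1, Sgo2a and Epb42 were matched by synonym. Genes named are all 34, and of each other list those past the threshold and otherwise up to 3 with the smallest p; basal markers Krt5, Trp63, Neurog1 and Neurod1, the tissue markers, Car2 and Tfrc were named besides, after their values were seen. Some genes of these lists are counted but not reported here by name. The 34 genes and all lists were chosen with earlier results of these data known. Of the 34, 8 overlap exons of an antisense gene. Alternatives were another filter, no sex chromosome genes, another threshold, folds without shrinkage and without the length trend. Python 3.11.15, scipy 1.17.1 and statsmodels 0.14.6 were used.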

Additional observations from a re-analysis of the deposited data

How the results depend on the processing

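No paired analysis was possible because the table holds no values per library, and for the same reason leaving out replicates and an edgeR test were not run. The count of 0 of the 34 genes past the threshold (5 at an unadjusted p under 0.05 in the authors' DESeq2 test) held in each of the alternatives run: no filter on the mean, a mean of at least 50 (30 of the 34 genes left), no X and Y genes, an adjusted p under 0.1, and the length trend removed with either length. Undoing the shrinkage leaves each p as it was, so it bears on the folds and not on this count. The smallest adjusted p ran from 0.258 to 0.588. Positive folds numbered 6 to 9 and the median log2 fold change ran from -0.13 to -0.05; the lowest median came from the other root of the shrinkage, an alternative added after seeing the data, as was the longest transcript of each gene. With the length trend removed 5 genes changed sign, which follows from subtracting the trend: Aurka to 0.023, Birc5 to 0.057, Cdc20 to 0.014, Tpx2 to -0.038 and Tyms to -0.0097. With the longest transcripts, Aurka was at 0.030, Cdc20 at 0.020, Tpx2 at -0.026 and Tyms at -0.016, and Cenpa at -0.30 (adjusted p = 0.264). The other root would give log2 folds of -0.76 for Pcna, -0.70 for Mcm5, -0.60 for Cenpa, -0.54 for Nusap1 and -0.49 for Plk1, with none possible for Ccne1, and a needed change of 1.94-fold for the median gene. Depth limits the scarce genes most, above all the cyclin E genes.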
